A study of Mus musculus with 6 samples.

Results

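Glycolysis, lactate and hypoxia-response genes were described in stimulated mouse natural regulatory T cells (nTreg cells), the T cells that restrain other immune cells, from mice labelled WT and mice with a T cell knockout of the splicing factor gene Srsf1. The genes were taken from a list of 32 names. Members are 31 of the 24982 symbols in the count table, since pyruvate kinase is listed once, as PKM. As the deposited tables spell them, the transporters were SLC2A1, SLC2A3, SLC16A1 and SLC16A3. The enzymes were HK1, HK2, GPI1, PFKL, PFKM, PFKP, ALDOA, ALDOC, TPI1, GAPDH, PGK1, PGAM1, ENO1, ENO2, PKM, LDHA and LDHB. The regulatory kinases were PFKFB3, PFKFB4 and PDK1, and the hypoxia-response genes were HIF1A, MIF, BNIP3, EGLN3, P4HA1, VEGFA and ERO1L. A total of 30 members passed the filter on low counts, and the exception was Eno1. The mice were of the B6.129 strain and 8 to 10 weeks old. Splenic CD4+CD25+CD127lo cells were sorted and then cultured for 72 h with anti-CD3 and anti-CD28 (2 µg/ml each) plus recombinant interleukin-2 (10 ng/ml). The control group is labelled WT, with no floxed allele or Cre named. The other (KO) is labelled Srsf1-flox/flox dLck.Cre, in which a distal Lck promoter drives Cre in T cells. Each group had 3 libraries, taken to be 1 per mouse from the design text.

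Glycolysis splits glucose into pyruvate in the cytosol, and lactate dehydrogenase turns pyruvate into lactate, which leaves the cell through monocarboxylate transporters. T cells raise this pathway when stimulated. HIF-1, made of HIF-1alpha (Hif1a) and ARNT, is a transcription factor whose alpha subunit is broken down after prolyl hydroxylases modify it in the presence of oxygen. Its known targets include most glycolysis genes and genes such as Bnip3, Vegfa and Pdk1.

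Total counts for replicates 1, 2 and 3 were 23263741, 25908166 and 27562046 in WT and 20373649, 13241964 and 10183626 in KO. Every KO library was thus shallower than every WT library, and the part of depth in the results was not tested. The mismatch rate per base was 0.37%, 0.43% and 0.37% in WT and 0.52%, 0.35% and 0.32% in KO. Srsf1, the targeted gene, had 1214, 1230 and 756 CPM (counts scaled to a common library size, always given in the order of replicates 1, 2 and 3) in the WT libraries and 438, 812 and 787 CPM in the KO libraries (log2 fold change -0.65, SE 0.32, edgeR adjusted p = 0.682). On Srsf1 alone the library labelled WT replicate 3 goes against its label, since it lay below KO replicates 2 and 3. Counts cover the whole gene, so a deleted part is not seen separately, and directions here follow the labels. Of the Treg markers, Foxp3 had 159.6, 121 and 104 CPM in WT libraries against 464, 357 and 413 CPM in KO libraries, with a log2 fold change of 1.68. The other 4 were at 0.91 for Ikzf2, 0.30 for Tnfrsf18, -0.09 for Il2ra and -0.79 for Ctla4, and none of the 5 passed the edgeR threshold (adjusted p of 0.197 for Foxp3). The 4 B cell markers summed to 0.702 to 4.75 CPM. The 6 macrophage and monocyte markers present summed to at most 0.902 CPM, with Csf1r and Lyz2 at 0 counts throughout. The CD8 T cell markers Cd8a and Cd8b1 differed by label without overlap, at a summed 193 to 269 CPM in WT and 38.9 to 60.5 CPM in KO. Cd8b1 (log2 fold change -2.68, edgeR adjusted p = 0.0166) was 1 of the 2 genes called over all genes. Cd8a was not called (-1.92, edgeR adjusted p = 0.197). The library labelled WT replicate 3 lay on the WT side for Cd8b1 (87.2 CPM, against at most 14.1 CPM in KO) and for Foxp3. The 3 NK cell markers were low, at a summed 1.67 to 2.12 CPM in WT and 2.56 to 6.72 CPM in KO. Of the T cell markers, Cd3e (0.68) and Cd4 (0.70) were higher in every KO library without being called, and Cd3g (0.08) overlapped. The part of these markers in the results below was not tested. The source field names effector CD4 T cells, whereas the titles and the sorting protocol name nTreg cells. In bulk RNA, fewer cells of a type and less RNA per cell cannot be told apart.

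Libraries within each group differed for these genes. The library labelled WT replicate 3 was the highest of the 6 libraries for 22 of the 30 tested members, whereas 18.5% of all genes tested were highest there. For 8 members it was over 2-fold above the mean of WT replicates 1 and 2, a gap that 6.8% of all genes showed. KO replicate 1 was the highest library for 7 members (36.6% of all genes) and the lowest for 8 (4102 of all 11772 genes). Neither share was above that of all genes. KO replicate 2 was the lowest library for 18 of the 30 members, against 1764 of all 11772 genes. The mean over the 30 members, on the log2(CPM + 0.5) scale relative to the WT mean, was -0.30, -0.27 and 0.58 in the WT libraries and -0.21, -0.65 and -0.27 in the KO libraries. WT replicates 1 and 2 thus lay within the range of the KO libraries.

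**Figure D1:**
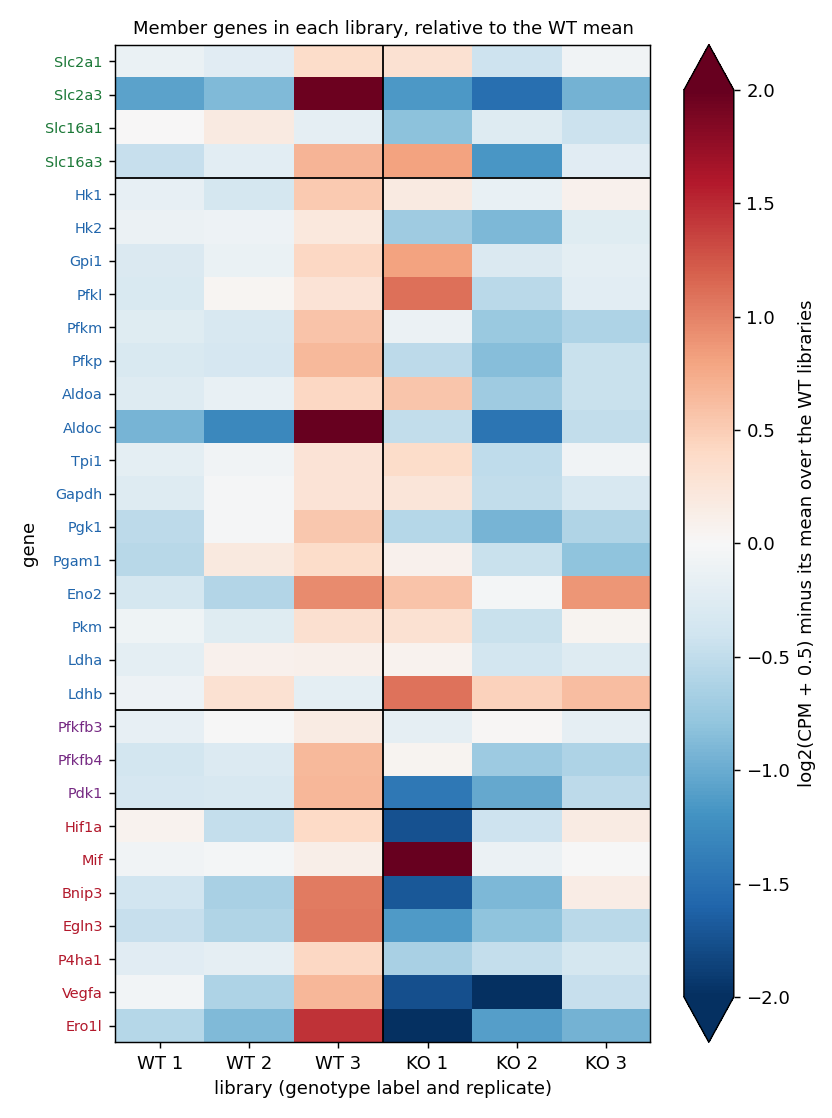
Rows are the 30 tested member genes (green, transporters; blue, enzymes; purple, regulatory kinases; red, hypoxia-response genes), columns the 6 libraries, and colour is log2(CPM + 0.5) minus its mean over the WT libraries. The library labelled WT replicate 3 is red in most rows (highest of the 6 libraries for 22 members), while KO replicate 1 is red for Mif and Pfkl and blue for Hif1a, Bnip3 and Ero1l.

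The comparison of KO with WT asked how these genes differ between cells of the 2 labelled genotypes. No member passed the threshold in edgeR's quasi-likelihood test over all 11772 genes tested (0 of 30 at an adjusted p under 0.05, with 0.017% of all genes called), and DESeq2 and limma voom also called 0 members. At an unadjusted p under 0.05 edgeR had 7 members lower (Slc2a3, Hk2, Pgk1, Pdk1, Egln3, Vegfa and Ero1l; 2.76% of all genes) and 1 higher, Ldhb (4.75% of all genes). DESeq2 had 9 members at that level (9.42% of all genes) and limma voom 6 (7.81%). Fitted log2 fold changes were below 0 for 25 of 30 members, where 48.4% of all genes were, and their median was -0.44 against 0.02 over all genes. When the library labelled WT replicate 3 was left out, 18 of 30 were below 0, the median was -0.10, and 1 member, Eno2, had an unadjusted p under 0.05 (5.07% of all genes).

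Every KO library lay below every WT library for 7 members, where 8.18% of all genes did, and above for 1 member, Ldhb (7.48% of all genes). The 7 genes were the lactate transporter Slc16a1, the enzymes Hk2, Pfkp and Pgk1, the kinase Pdk1, and the hypoxia-response genes P4ha1 and Ero1l. Their log2 fold changes with the library labelled WT replicate 3 left out were -0.58 for Slc16a1, -0.49 for Hk2, -0.29 for Pfkp, -0.46 for Pgk1, -0.62 for Pdk1, -0.29 for P4ha1 and -0.58 for Ero1l, each with an edgeR adjusted p of 0.888.

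By role, the 7 hypoxia-response genes had a median log2 fold change of -0.83, with 6 below 0, and the 16 tested enzymes a median of -0.15, with 12 below 0. Leaving out the library labelled WT replicate 3 gave -0.29 and 0.09, and leaving out KO replicate 1 gave -0.49 and -0.41. The 4 transporters had a median of -0.28 and the 3 regulatory kinases one of -0.51. These were -0.04 and -0.08 with the library labelled WT replicate 3 left out, and -0.53 and -0.84 with KO replicate 1 left out.

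Ero1l (Ero1a in RefSeq), an oxidase that forms disulfide bonds in the endoplasmic reticulum, had 323, 259 and 1308 CPM in the WT libraries and 111, 223 and 248 CPM in the KO libraries. The library labelled WT replicate 3 was thus 4.5 times the mean of the other WT libraries, and all KO values lay below all WT values. The log2 fold change was -1.70 (SE 0.62, edgeR adjusted p = 0.624), and -1.42 without KO replicate 1. Vegfa, which encodes the vessel growth factor VEGF-A, had 43.2, 29.1 and 71.5 CPM in the WT libraries and 12.9, 9.96 and 32.3 CPM in the KO libraries. KO replicate 3 lay above WT replicate 2, so the groups overlapped. For Vegfa the log2 fold change was -1.39 (SE 0.50, edgeR adjusted p = 0.618). It was -0.98 with the library labelled WT replicate 3 left out, the most negative value of any tested member in that fit.

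Egln3, a prolyl hydroxylase that marks HIF-1alpha for breakdown and is itself a hypoxia target, had 137, 125 and 393 CPM in the WT libraries and 85.9, 108 and 131 CPM in the KO libraries (log2 fold change -1.02, SE 0.44, edgeR adjusted p = 0.660). Its value was -0.29 with the library labelled WT replicate 3 left out, and KO replicate 3 lay between the other WT values. P4ha1, a collagen prolyl hydroxylase subunit, had 133, 136 and 206 CPM in the WT libraries and 99.0, 111 and 122 CPM in the KO libraries (log2 fold change -0.52, SE 0.25, edgeR adjusted p = 0.675). Here the groups did not overlap. Bnip3, which promotes removal of mitochondria, had 111, 92.2 and 297 CPM in the WT libraries and 44.1, 77.6 and 160.0 CPM in the KO libraries. Its log2 fold change was -0.83 (SE 0.56, edgeR adjusted p = 0.741), or -0.11 with the library labelled WT replicate 3 left out.

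Hif1a itself was abundant, with 1529, 1047 and 1923 CPM in the WT libraries and 435, 1089 and 1636 CPM in the KO libraries. KO replicates 2 and 3 lay within the WT range, and KO replicate 1 lay far below all others. The log2 fold change was -0.51 (SE 0.45, edgeR adjusted p = 0.774), and -0.14 without KO replicate 1. These are mRNA counts and do not measure HIF-1alpha protein. Mif, a secreted cytokine and tautomerase, had 72.0, 73.4 and 82.4 CPM in the WT libraries and 387, 69.8 and 75.0 CPM in the KO libraries, so that KO replicate 1 alone was high. For Mif the log2 fold change was 1.22 (SE 0.61, edgeR adjusted p = 0.682), and -0.07 without that library.

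**Figure D2:**
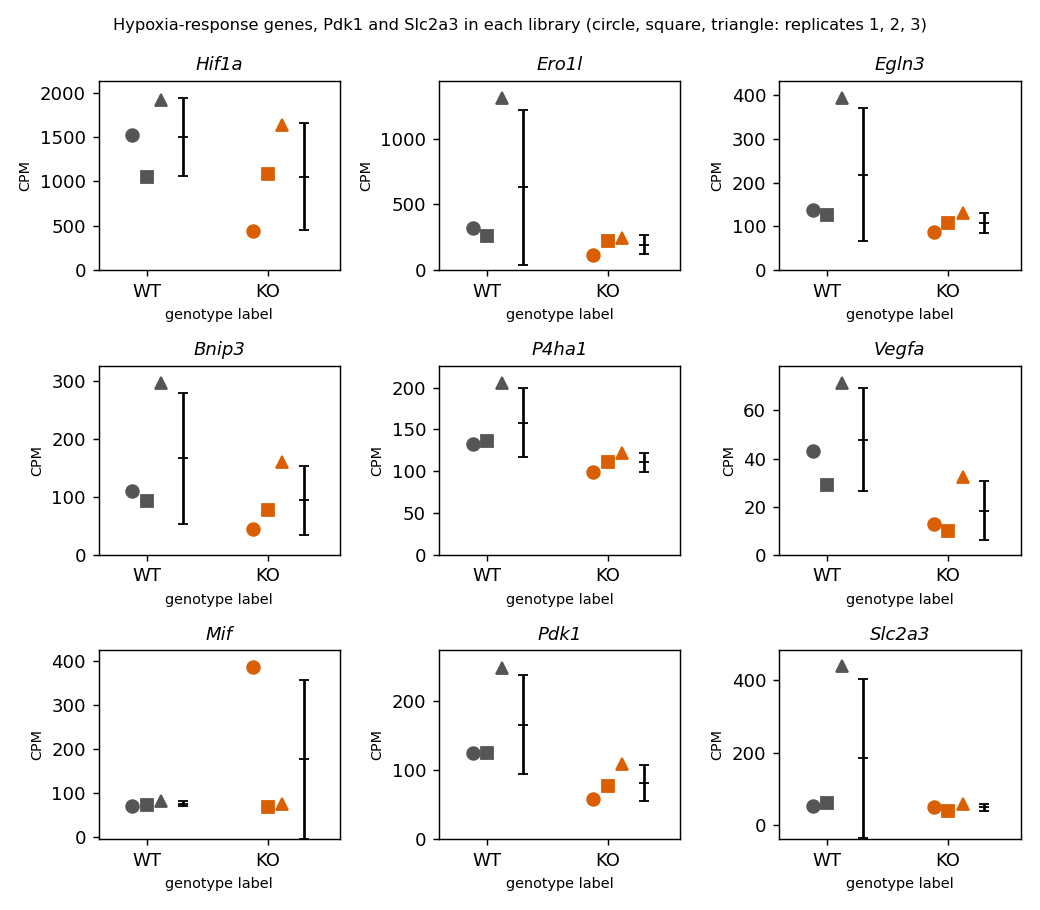
Normalised counts (CPM) of the 7 hypoxia-response genes, Pdk1 and Slc2a3 in each library, grey for WT and orange for KO, with circles, squares and triangles for replicates 1, 2 and 3 and bars for mean ± SD (n = 3). The grey triangle, the library labelled WT replicate 3, is the highest point in every panel except Mif, where KO replicate 1 at 387 CPM is.

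The same library was high for hypoxia targets outside the list. Of 21 further hypoxia targets tested, 16 were highest in the library labelled WT replicate 3 (18.5% of all genes). There 10 were over 2-fold above the other WT libraries (6.8% of all genes), while 3 were highest in KO replicate 1 (36.6% of all genes). None was called (0 of 21 in either direction in edgeR, with 0.017% of all genes called). At an unadjusted p under 0.05 edgeR had 3, against 884 of all 11772 genes. Of the 21 genes 3 were above 0, where 48.4% of all genes were below 0. Their median log2 fold change was -0.46, or -0.23 with that library left out. Ndrg1, a gene induced by stress and low oxygen, had 50.8, 42.5 and 155 CPM in the WT libraries and 30.2, 24.8 and 39.8 CPM in the KO libraries (log2 fold change -1.39, SE 0.49, edgeR adjusted p = 0.603; -0.57 with that library left out). Stc2, which encodes a secreted glycoprotein, had 19.2, 13.8 and 34.7 CPM in the WT libraries and 8.82, 7.92 and 14.1 CPM in the KO libraries (log2 fold change -1.14, SE 0.41, edgeR adjusted p = 0.623; -0.69 with that library left out). Of 6 genes of the HIF pathway itself (Arnt, Epas1, Vhl, Egln1, Egln2 and Hif1an), 2 were above 0 (median -0.11), 0 were called in edgeR and 0 had an unadjusted p under 0.05. With that library left out 5 of the 6 were above 0 (median 0.13). The prolyl hydroxylase gene Egln2 had 15.3, 17.4 and 15.8 CPM in the WT libraries and 56.0, 17.2 and 19.1 CPM in the KO libraries, again with KO replicate 1 apart. Hif1an, which encodes the asparaginyl hydroxylase FIH, had a log2 fold change of 0.29 (SE 0.24, edgeR adjusted p = 0.762).

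Because the members include many known HIF-1 targets, their promoters were searched for the core letters of the hypoxia response element, ACGTG or GCGTG, on both strands. Windows ran from 250 bases before to 50 bases after the first listed start in RefSeq (GRCm38.p6, which is not the mm9 build of the counts). Of 31 members 30 had an entry, and Slc2a3 had none. A match was found in 23 of the 30 windows (76.7%), in 64.5% of windows of genes tested here and in 43.8% of all windows. By role, 3 of 3 transporters, 11 of 17 enzymes, 3 of 3 regulatory kinases and 6 of 7 hypoxia-response genes had one. The letters overlap the motif CACGTG, bound by Myc and related factors, which was in 5 of the 30 windows and 10.5% of windows of tested genes. A match is a description of letters and not a bound site. The 250 bases upstream of the start are printed for the 3 hypoxia-response genes that were over 2-fold higher in the library labelled WT replicate 3 than in the other WT libraries, and for Aldoc, the enzyme with the largest such ratio. They run 5′ to 3′ on the gene's strand as listed in RefSeq, with the searched letters in capitals (a CACGTG counts as 1 match). Bases just past the start were found in annotated transcripts of Bnip3 and Egln3, but not in those of Ero1l and Aldoc.
Ero1l: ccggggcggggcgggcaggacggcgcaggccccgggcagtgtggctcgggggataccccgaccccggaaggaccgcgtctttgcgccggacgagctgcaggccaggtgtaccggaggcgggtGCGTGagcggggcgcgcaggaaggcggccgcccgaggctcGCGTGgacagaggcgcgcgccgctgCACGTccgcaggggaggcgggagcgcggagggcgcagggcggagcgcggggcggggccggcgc
Bnip3: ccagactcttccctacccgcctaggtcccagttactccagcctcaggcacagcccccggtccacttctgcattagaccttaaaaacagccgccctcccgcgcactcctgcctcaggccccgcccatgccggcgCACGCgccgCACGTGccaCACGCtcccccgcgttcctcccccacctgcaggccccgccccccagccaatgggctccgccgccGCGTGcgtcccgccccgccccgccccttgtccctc
Egln3: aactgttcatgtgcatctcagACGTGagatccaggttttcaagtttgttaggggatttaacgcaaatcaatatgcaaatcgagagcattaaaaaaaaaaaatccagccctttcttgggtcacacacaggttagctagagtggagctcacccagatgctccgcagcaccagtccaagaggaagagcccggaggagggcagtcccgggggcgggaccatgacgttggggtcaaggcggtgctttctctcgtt
Aldoc: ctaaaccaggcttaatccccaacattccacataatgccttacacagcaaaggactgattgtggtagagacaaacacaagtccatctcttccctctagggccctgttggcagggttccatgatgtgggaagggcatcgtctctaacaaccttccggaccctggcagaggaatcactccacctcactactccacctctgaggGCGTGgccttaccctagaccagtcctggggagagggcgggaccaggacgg
The stretch of Ero1l (chr14:45318573-45318822, minus strand) held 3 matches and that of Bnip3 (chr7:138909507-138909756, minus strand) 4 including a CACGTG. That of Egln3 (chr12:54203875-54204124, minus strand) held 1, and that of Aldoc (chr11:78322823-78323072, plus strand) 1. Vegfa had no match in its window, which says only that these letters are not there.

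Glucose enters T cells mainly through GLUT1 (Slc2a1) and GLUT3 (Slc2a3). Slc2a1 had 129, 121 and 182 CPM in the WT libraries and 175, 106 and 135 CPM in the KO libraries (log2 fold change -0.05, SE 0.27, edgeR adjusted p = 0.955). Slc2a3 had 53.2, 60.9 and 438 CPM in the WT libraries and 50.5, 39.4 and 58.1 CPM in the KO libraries. The library labelled WT replicate 3 was thus 7.67 times the mean of the other WT libraries, and the remaining 5 libraries lay between 39.4 and 60.9 CPM. The log2 fold change of -1.90 (SE 0.75, edgeR adjusted p = 0.651) was the most negative of all tested members, and it was -0.22 with that library left out.

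Of the monocarboxylate transporters, Slc16a1 (MCT1) had 343, 388 and 302 CPM in the WT libraries and 193, 286 and 254 CPM in the KO libraries (log2 fold change -0.49, SE 0.24, edgeR adjusted p = 0.682). Its groups did not overlap, and it was the only tested member that was highest in WT replicate 2. Slc16a3 (MCT4), a lactate exporter and hypoxia target, had 63.2, 75.4 and 139.9 CPM in the WT libraries and 154, 38.8 and 74.5 CPM in the KO libraries. The library labelled WT replicate 3 and KO replicate 1 were both high. The log2 fold change of -0.06 (SE 0.49, edgeR adjusted p = 0.972) was 0.34 with the library labelled WT replicate 3 left out and -0.72 with KO replicate 1 left out.

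Among the enzymes, Ldhb was the member with higher values in every KO library. Ldhb, the lactate dehydrogenase subunit that favours oxidation of lactate to pyruvate, had 16.3, 21.8 and 15.2 CPM in the WT libraries and 37.9, 24.4 and 27.3 CPM in the KO libraries (17.8 ± 3.52 against 29.8 ± 7.09 CPM, mean ± SD, n = 3 each). The log2 fold change was 0.75 (SE 0.29, edgeR adjusted p = 0.638). It was 0.63 with the library labelled WT replicate 3 left out, 0.54 with KO replicate 1 left out, and 0.64 when corrected for GC content and transcript length. Ldha, the subunit that favours lactate production and the member with the highest level per length, had 2143, 2630 and 2659 CPM in the WT libraries and 2581, 1910 and 2053 CPM in the KO libraries, with overlapping groups (log2 fold change -0.18, SE 0.24, edgeR adjusted p = 0.834).

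Hk2, the inducible hexokinase that makes glucose-6-phosphate, had 378, 383 and 476 CPM in the WT libraries and 251, 219.8 and 345 CPM in the KO libraries (log2 fold change -0.60, SE 0.25, edgeR adjusted p = 0.652). Each KO library lay below each WT library, and the value was -0.55 with KO replicate 1 left out. Pgk1, the phosphoglycerate kinase that makes ATP, had 334, 472 and 693 CPM in the WT libraries and 320.2, 252 and 313 CPM in the KO libraries (log2 fold change -0.76, SE 0.30, edgeR adjusted p = 0.651), with KO replicate 1 close below WT replicate 1. Pfkp, the platelet-type phosphofructokinase, had 400.0, 391 and 774 CPM in the WT libraries and 343, 273 and 364 CPM in the KO libraries (log2 fold change -0.67, SE 0.32, edgeR adjusted p = 0.667). Its groups did not overlap either.

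The other enzymes lay nearer 0 or rested on 1 library. Log2 fold changes of Hk1, Gpi1, Pfkl, Aldoa, Tpi1, Gapdh and Pkm ran from -0.17 (Gapdh) to 0.28 (Pfkl), with 0.16 for Gpi1, -0.13 for Aldoa, -0.04 for Tpi1, -0.02 for Pkm and -0.01 for Hk1. Hk1, Aldoa, Tpi1 and Pkm were above 0 with the library labelled WT replicate 3 left out, and Hk1, Tpi1 and Pkm also under upper quartile scaling. With KO replicate 1 left out Hk1 was at -0.08, Aldoa at -0.605, Tpi1 at -0.29 and Pkm at -0.195. When corrected for GC content and transcript length they were at -0.26, -0.47, -0.19 and -0.30. Pfkl, the liver-type phosphofructokinase, had 109.6, 139.7 and 165 CPM in the WT libraries and 293, 93.3 and 117 CPM in the KO libraries, and its value was -0.39 with KO replicate 1 left out. Pfkm (-0.53, SE 0.33, edgeR adjusted p = 0.724) and Pgam1 (-0.39, SE 0.32, edgeR adjusted p = 0.765) had overlapping groups, and were at -0.20 and -0.22 with the library labelled WT replicate 3 left out. Aldoc, an aldolase isozyme best known from brain, had 5.74, 4.35 and 54.1 CPM in the WT libraries and 7.86, 3.77 and 7.92 CPM in the KO libraries, so that the library labelled WT replicate 3 was 10.7 times the mean of the other WT libraries. Its log2 fold change of -1.72 (SE 0.90, edgeR adjusted p = 0.693) was 0.36 with that library left out. Eno2, the neuronal enolase, was low, with 0.813, 0.628 and 2.73 CPM in the WT libraries and 2.01, 1.13 and 2.61 CPM in the KO libraries (log2 fold change 0.45, SE 0.64, edgeR adjusted p = 0.852), and was at 1.39 with that library left out.

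Eno1, the main enolase, cannot be read from the count table. It had 2, 2 and 7 counts in the WT libraries and 18, 0 and 0 in the KO libraries. The deposited FPKM (fragments per kilobase, scaled to depth) of Eno1 were 36.8, 60.1 and 69.8 in the WT libraries and 525, 22.4 and 32.1 in the KO libraries. Eno1b, a copy of Eno1, had at most 13 counts in any library, and how reads shared by copies were counted is not stated. For each gene the ratio of FPKM to CPM was compared across libraries. Its highest over its lowest value had a median of 1.088 over all tested genes and a 90th percentile of 1.27. Gapdh (1.70), Pgam1 (1.47), Mif (1.33) and Ero1l (1.30) exceeded that, and Gapdh was at 0.091 on log2(FPKM + 1) against -0.17 in counts.

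**Figure D3:**
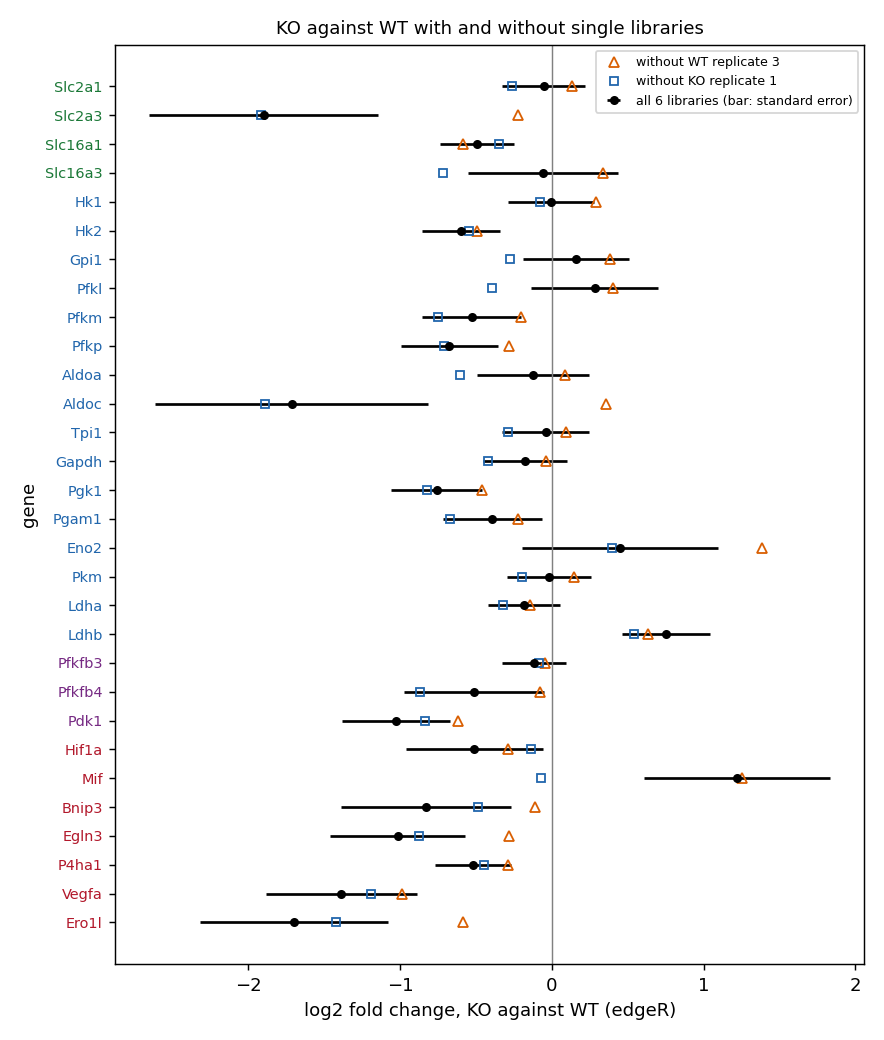
Log2 fold changes of KO against WT for the 30 tested members with all 6 libraries (black, bars are standard errors), without the library labelled WT replicate 3 (orange triangles) and without KO replicate 1 (blue squares). Ldhb is on the right of 0 and Hk2, Pgk1, Pdk1 and Vegfa on the left in all 3 fits, whereas Slc2a3 (-1.90) and Aldoc (-1.72) move to -0.22 and 0.36 in the first and Mif moves to -0.07 in the second of the reduced fits.

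Regulatory kinases set the flow into and out of the pathway. Pdk1, the kinase that inhibits pyruvate dehydrogenase and so keeps pyruvate from the mitochondrial cycle, had 124, 125 and 248 CPM in the WT libraries and 58.1, 76.8 and 109 CPM in the KO libraries. The groups did not overlap, and Pdk1 had the smallest p of all tested members (log2 fold change -1.03, SE 0.36, unadjusted p = 0.0187, edgeR adjusted p = 0.594). Its value was -0.84 with KO replicate 1 left out and -0.95 when corrected for GC content and length. Pfkfb3, which makes the phosphofructokinase activator fructose-2,6-bisphosphate, had 60.0, 66.7 and 74.9 CPM in the WT libraries and 58.8, 67.8 and 59.0 CPM in the KO libraries (log2 fold change -0.12, SE 0.21, edgeR adjusted p = 0.875). Pfkfb4, a related enzyme, had 2.94, 3.18 and 6.42 CPM in the WT libraries and 4.11, 2.19 and 2.41 CPM in the KO libraries (log2 fold change -0.51, SE 0.46, edgeR adjusted p = 0.775), and was at -0.08 with the library labelled WT replicate 3 left out. For both genes the groups overlapped.

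Neighbouring branches of glucose metabolism had no called gene. A list of 12 tested genes covered pyruvate entry into mitochondria and pyruvate dehydrogenase with the kinases and phosphatases that regulate it. Of these, 2 were above 0 (median -0.33), 0 were called in edgeR and 1, Dlat, had an unadjusted p under 0.05 (884 of all 11772 genes). With the library labelled WT replicate 3 left out 2 were again above 0 (median -0.34). Their summed level was 1214, 1130 and 1031 CPM in the WT libraries and 594, 962 and 963 CPM in the KO libraries. Dlat, a subunit of pyruvate dehydrogenase, had 139.5, 136 and 116 CPM in the WT libraries and 77.3, 105 and 91.3 CPM in the KO libraries (log2 fold change -0.51, SE 0.22, edgeR adjusted p = 0.659). Every KO library lay below every WT library, as for 8.18% of all genes. Pdk4, which like Pdk1 inhibits pyruvate dehydrogenase, had 0.994, 0.863 and 5.53 CPM in the WT libraries and 0, 0.604 and 0.802 CPM in the KO libraries. These are few counts (22, 22 and 154 in WT, 0, 8 and 8 in KO). Its log2 fold change was -2.53 (SE 1.14, edgeR adjusted p = 0.663), or -1.12 with the library labelled WT replicate 3 left out. The related kinase gene Pdk2, also low, went the other way (1.46, SE 0.67, edgeR adjusted p = 0.663), and Pdk3 was at -0.39. Of 7 pentose phosphate genes 6 were above 0 (median 0.05), with 0 called in edgeR and 0 at an unadjusted p under 0.05. Of the same 7 genes 6 were highest in KO replicate 1 (36.6% of all genes). With the library labelled WT replicate 3 left out 3 of the 7 were above 0 (median -0.05). Pgls, the lactonase of that branch, had 57.8 CPM in KO replicate 1 and 6.55 to 11.8 CPM in the other libraries. The epimerase gene Rpe was at -0.39 (SE 0.31, edgeR adjusted p = 0.760). Of 9 other tested glycolysis and glycogen genes 2 were above 0 (median -0.39, or -0.15 with the library labelled WT replicate 3 left out), with 0 called in edgeR and 0 at an unadjusted p under 0.05. Those with the smallest p were Gpd2 (-0.47, SE 0.27, edgeR adjusted p = 0.713) and Pfkfb2 (-0.47, SE 0.34, edgeR adjusted p = 0.753).

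Shares within isozyme sets were compared on FPKM, which is per length. Each of 9 shares was tested with an exact two-sided permutation test over the 6 libraries, where 3 against 3 allow no p below 0.1, so no share could pass a threshold of 0.05. Hk1 made up 48.9%, 44.9% and 54.7% of hexokinase 1 and 2 FPKM in the WT libraries and 64.7%, 62.3% and 56.1% in the KO libraries (49.5 ± 4.94% against 61.0 ± 4.47%, mean ± SD, n = 3 each; exact permutation p = 0.1, adjusted over the 9 shares 0.45). The groups did not overlap, although the gap between the library labelled WT replicate 3 and KO replicate 3 was small. The difference of 11.5 percentage points was 9.21 to 14.1 points with any 1 library left out. Hk1 itself had a log2 fold change of -0.01, and Hk2 was the member of the pair with the lower KO values.

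Ldhb made up 1.21%, 1.27% and 0.940% of lactate dehydrogenase A and B FPKM in the WT libraries and 2.49%, 2.01% and 2.08% in the KO libraries (1.14 ± 0.175% against 2.19 ± 0.259%, mean ± SD, n = 3 each; exact permutation p = 0.1, adjusted 0.45). All KO shares lay above all WT shares, and the difference of 1.05 points was 0.905 to 1.15 points with any 1 library left out. Ldha therefore held nearly the whole of the pair in every library. The share of Slc2a3 in Slc2a1 and Slc2a3 was 20.6%, 24.05% and 60.25% in the WT libraries and 15.7%, 19.2% and 21.2% in the KO libraries (exact permutation p = 0.2, adjusted 0.540). Slc2a3 held the larger share of this pair only in the library labelled WT replicate 3. The other 6 shares overlapped between the groups, with exact permutation p of 0.3 to 0.7, and the enolase share rests on the uncertain Eno1 values.

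**Figure D4:**
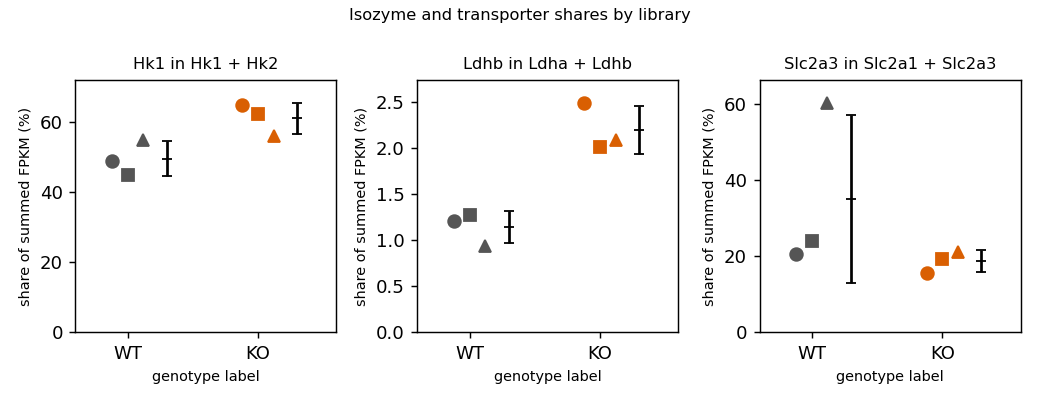
Share of Hk1, Ldhb and Slc2a3 in the summed FPKM of its set (percent, vertical axis) by library, grey for WT and orange for KO, with circles, squares and triangles for replicates 1, 2 and 3 and bars for mean ± SD (n = 3). The KO points lie above the WT points for Hk1 and Ldhb, and the WT triangle at 60.25% stands alone for Slc2a3.

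Per length, Ldha had the highest mean level in the WT libraries both as FPKM (1389) and as CPM per kilobase of the longest annotated transcript (1365). Pkm had 889.5 FPKM and 942 CPM per kilobase, Aldoa 711 FPKM and 826 CPM per kilobase, and Tpi1 411 FPKM and 460.3 CPM per kilobase. The 2 scales differed for Pgk1 (1077 FPKM and 274 CPM per kilobase), Gapdh (1017 and 298) and Pgam1 (401 and 55.2), so these genes are given no place in the order. Eno2 (0.415 FPKM in WT) and Pfkfb4 (0.96 FPKM) were low on both scales.

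KO replicate 1 differed from the other KO libraries along the GC content of transcripts, and the members lay on that trend. Across 11674 genes the log2 ratio of KO replicate 1 to the mean of KO replicates 2 and 3 correlated with the GC content of the longest annotated transcript at Pearson r = 0.82, and across the 30 tested members at r = 0.87. These are correlations across genes of the same libraries, given as a description. Genes in the lowest quartile of GC content (up to 44.7%) had a median ratio of -1.005 on the log2 scale, and those in the highest (from 54.2%) a median of 1.003. Hif1a (41.3% GC), Bnip3 and Ero1l (41.6% each) were at 0.319, 0.371 and 0.474 times the other KO libraries. Mif (63.5%) and Pfkl (57.05%) were at 5.34 and 2.78 times. For the library labelled WT replicate 3 against WT replicates 1 and 2, the same correlation across genes was 0.18.

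When each library was corrected for GC content and length, the median of the hypoxia-response genes was -0.65 and that of the enzymes -0.31, with 0 members called in edgeR and 11 at an unadjusted p under 0.05 (11.8% of all genes). Mif was then at 0.33, Pfkl at -0.19 and Hif1a at -0.33. With the correction and the library labelled WT replicate 3 left out, the medians were -0.12 and -0.18. Vegfa was then at -1.04, Hk2 at -0.66, Pdk1 at -0.55 and Ldhb at 0.53, with 0 members called in edgeR (4 at an unadjusted p under 0.05, with 10.2% of all genes at that level).

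**Figure D5:**
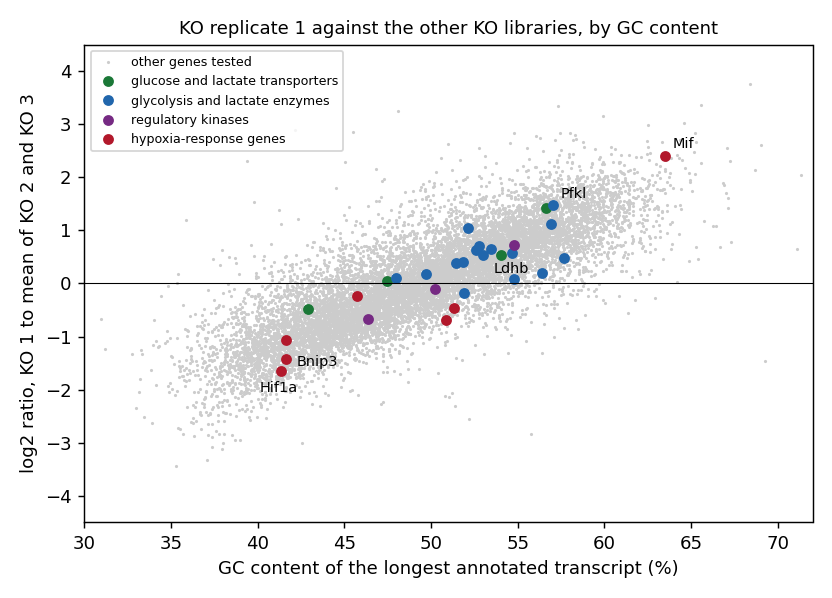
Log2 ratio of KO replicate 1 to the mean of KO replicates 2 and 3 (vertical axis) against GC content of the longest annotated transcript in percent (horizontal axis), grey dots for other tested genes and coloured dots for members by role. Points run from lower left to upper right (r = 0.82 across genes), with Hif1a and Bnip3 at the low end and Mif at the high end.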

How the data were processed

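Single-end 75-bp reads of 6 stranded mRNA libraries went through VIPER, per the design text. The aligner was STAR 2.4.2a, per the file headers, and the build mm9, per the submitters' processing notes. Which tool counted reads, with which annotation and strand option, is not given in the sources used here. The authors deposited raw counts per gene symbol, FPKM values (normalized for length and depth) and an alignment report with percent values.

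Groups and replicate numbers came from the titles. The test was edgeR 4.0.16 in R 4.3.3, run on the raw counts of all 6 libraries with TMM scaling, filterByExpr (minimum count 10), the quasi-likelihood F test and Benjamini-Hochberg adjustment over all genes tested (threshold 0.05). Standard errors derive from the F statistic. Alternatives were DESeq2 1.42.0, limma 3.58.1, other scalings and filters, FPKM with pseudocounts of 1 and 0.1, the replicate number as a block, and left-out libraries. A correction for GC content and length (loess per library, longest GENCODE vM21 transcript) was chosen after seeing the data. The fit was also run on simulated counts with independent noise. These held no GC trend and no outlying library, so the simulation does not cover those features of the data. In each library 3 counts correspond to 0.109 to 0.295 CPM before normalization. Libraries of a group differed beyond sampling noise (chi-square per degree of freedom 20.8 to 218).

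The members and lists were chosen with earlier results of these data known. By rule, full values were given for the 4 members of each role with the smallest p, for Ldha, Ldhb and Hif1a, and for up to 2 genes of each further list. Library values of Mif, Bnip3, Pfkl, Aldoc, Eno2 and Eno1 and the fold changes of Pdk2 and Pdk3 were added after they were seen.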

Additional observations from a re-analysis of the deposited data

How the results depend on the processing

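No member passed an adjusted p of 0.05 under any of the 20 alternatives, and 16 of 30 tested members kept the sign of their fold change in all of those that tested them. Over all genes edgeR called 2. The number was 6 with no filter on low counts, 129 with DESeq2, 1 with limma voom, 1 with the replicate block, 7 with the GC and length correction, and 0 to 3 with 1 library left out. It was 80 with 2 against 2 libraries (neither the library labelled WT replicate 3 nor KO replicate 1). Limma on log2(FPKM + 1) with no filter called 0 genes (1040 at an unadjusted p under 0.05). The median of the hypoxia-response genes ran from -1.19 to -0.29 with 1 library left out. It was -0.119 with 2 against 2 libraries and -0.123 with the GC and length correction and the library labelled WT replicate 3 left out. The enzyme median was -0.41 to 0.089 with 1 library left out.

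Signs changed mostly for members near 0. Log2 fold changes were 0.0015 for Slc2a1, 0.0058 for Slc16a3, 0.040 for Hk1, 0.017 for Tpi1 and 0.036 for Pkm under library size scaling, and 0.027 for Hk1, 0.0047 for Tpi1 and 0.023 for Pkm under upper quartile scaling. They were 0.037 for Hk1 with voom and 0.038 for Hk1 with the replicate block. On log2(FPKM + 1) they were 0.086 for Hk1, 0.091 for Gapdh and 0.021 for Pkm, with the same values without a filter, and on log2(FPKM + 0.1) 0.088 for Hk1, 0.091 for Gapdh and 0.021 for Pkm. With 2 against 2 libraries they were 0.25 for Hk1, -0.015 for Gpi1, -0.23 for Pfkl, 0.22 for Aldoc, 0.0067 for Pkm, 0.023 for Pfkfb3, 0.10 for Hif1a and 0.24 for Bnip3. The GC and length correction gave -0.19 for Pfkl, and with the library labelled WT replicate 3 left out as well -0.12 for Pfkl, 0.25 for Aldoc and 0.16 for Bnip3. With 1 library left out, values ran from -0.26 to 0.14 for Slc2a1, from -0.72 to 0.34 for Slc16a3, from -0.18 to 0.29 for Hk1, from -0.28 to 0.38 for Gpi1, from -0.39 to 0.57 for Pfkl, from -0.60 to 0.10 for Aldoa, from -2.202 to 0.36 for Aldoc, from -0.29 to 0.15 for Tpi1, from -0.20 to 0.16 for Pkm and from -0.070 to 1.602 for Mif. The isozyme share differences ran from -0.678 to 0.0686 points for Aldoc and from -4.84 to 14.6 points for Slc16a3. The cause of these changes was not tested.

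For same-numbered libraries, deviations from the group means correlated at -0.361, 0.145 and 0.138, and WT replicate 1 correlated best with KO replicate 2. Deviations within a group sum to 0, so these values cannot show whether libraries were handled in pairs. Few counts limit Eno1, which was not tested, and Eno2 and Pfkfb4, which had under 10 CPM in every library.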
